A study of Arabidopsis thaliana with 12 samples.

Results

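The comparison set the Arabidopsis thaliana line AK073210 against the line AK069096, each carrying the rice full-length cDNA clone after which it is named. Its members are the 4 arrays of these lines, 2 for each, out of 12 arrays and 6 lines in all, taken by their titles. Over 21494 of 21500 probes it asks how the deposited log ratios of AK073210 differ from those of AK069096. Every array set the RNA of aerial parts of a transformant, labelled with Cy3, against RNA of the wild type Col-0, labelled with Cy5, and no array swaps the dyes. Plants of all lines and of Col-0 were kept at 22 °C in long days (16 h light, 8 h dark). A dye effect or a property of Col-0 RNA that all arrays share cancels in the difference, whereas a property of the Col-0 RNA used for a single line would not. The sources used here do not say what the rice cDNAs encode, what drives them, whether a line stands for 1 or several independent transformants, or whether plants were pooled. The free-text description of every array repeats the name AK069096, so the lines rest on titles and source names.

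Expressing a cDNA of another plant in Arabidopsis can alter many endogenous transcripts, and aerial parts mix leaves, stems and, in flowering plants, flowers with pollen. Pollen tubes grow by softening their own wall, in part through pectin methylesterases, which remove methyl groups from pectin. Chlorophyll is built from glutamate through a chain of tetrapyrrole intermediates in the plastid, while anthocyanins are flavonoid pigments made from phenylalanine and finished by glycosyltransferases. In bulk tissue, fewer cells of a type and less RNA per cell cannot be told apart.

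Values are log2 ratios, converted from deposited ratios taken as log10. The sources used here leave unstated which of transformant and Col-0 is on top, so values and differences (AK073210 minus AK069096) are described by their side of 0 and never as higher or lower expression in a line. Errors are standard errors of the fit with n = 2 arrays per line, and p-values reflect only how far arrays of a line scatter, since nothing says that these came from separate plants. The number of arrays limits the precision. The 2 arrays correlated across probes at r = 0.647 in AK073210 and at r = 0.805 in AK069096. One array outside this comparison stood apart. Replicate 2 of the line AK073112 correlated with its own replicate 1 at r = 0.352 but with the AK069096 arrays at r = 0.799 and 0.816. Its label was kept although these correlations go against it, and whether it belongs to another line was not tested. This bears on every comparison with the 4 other lines. The fit shares 1 spread over all 12 arrays, so the AK073112 arrays widen it although no mean of the comparison uses them, and results are given with and without them. The typical ratio was smaller in AK073210, with a median absolute line mean of 0.195 there and 0.294 in AK069096, and in 63.0% of probes the AK073210 mean lay nearer 0.

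By limma, with Benjamini-Hochberg adjustment over all probes and a threshold of 0.05, 1029 probes (4.79%) differed between the lines. Of these 529 (2.46%) had a positive and 500 (2.33%) a negative difference. The positive side held 51.4% of them as deposited, 53.0% after quantile normalization and 66.1% after scale normalization, so the even split depends on the scaling. Quantile normalization left 179 positive (0.833%) and 159 negative (0.74%) calls, scale normalization 164 (0.763%) and 84 (0.391%). Large differences were mostly positive. At a size of at least 2, 117 differences were positive and 23 negative, and at a size of at least 4, 16 were positive and 3 negative, within a range of -4.46 to 6.18. For 614 of the 1029 probes the line means lay on opposite sides of 0. For 282 both lay on one side with AK073210 nearer 0, for 77 with AK069096 nearer 0, and for 56 a mean was exactly 0. In 497 of them both arrays of one line were positive and both of the other negative, which was so for 14.4% of all probes.

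The count depended on which arrays shared the fit. Without both AK073112 arrays 4645 probes passed (21.6%; 10.5% positive and 11.1% negative), and these include all 1029. With the 4 arrays of the comparison alone limma called 0, with a smallest adjusted p of 0.0501 and 6566 probes at an unadjusted p under 0.05, against 5474 with all 12 arrays. The count was 109 without AK069096 replicate 1, 212 without AK069096 replicate 2, 226 without AK073210 replicate 1 and 452 without AK073210 replicate 2. It was 493 without either AK065297 array, 378 without either AK102323 array, 751 without either AK073675 array and 4645 without either AK073112 array, with 1 array left out at a time. An exact permutation test of 2 arrays against 2 cannot give a two-sided p below 0.333, so single genes rest on the fit across all probes.

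**Figure D1:**
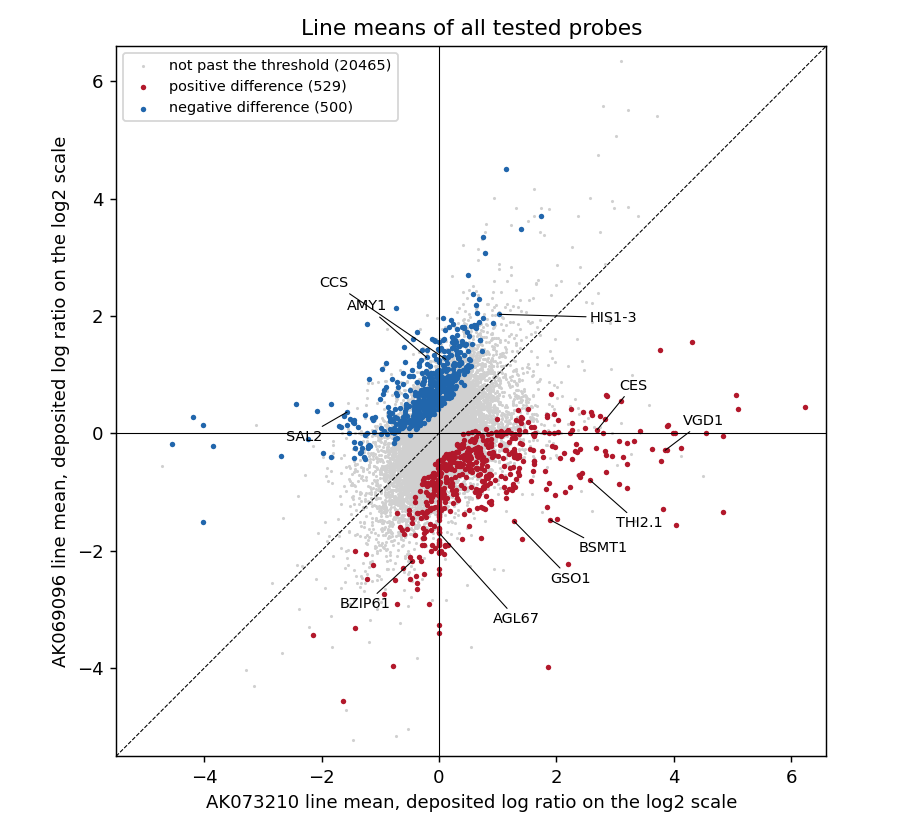
Mean deposited log ratio (log2 scale, n = 2 arrays) of AK073210 on the x axis and of AK069096 on the y axis, 1 point per tested probe. The dashed line marks equal means; the 529 positive differences lie below it and reach out along the x axis to a difference of 6.18, and the 500 negative ones lie above it.

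Of the 1316 tested probes whose gene has a symbol, 61 (4.64%) passed, 36 with a positive and 25 with a negative difference, a share near that of all probes. The other called probes carry a locus code only (374), several genes (2) or no listed gene (592). The 15 largest positive differences with a symbol ran from 1.51 to 4.14. The 15 most negative ones were smaller, from -0.78 to -1.93. All 30 passed without the AK073112 arrays too, 13 of them after quantile and 8 after scale normalization. The 8 were VGD1, THI2.1, GSO1, VGDH1, GILT and SBT4.13 on the positive side, and UGT73B5 and TRZ3 on the negative side. Without AK069096 replicate 1, AK069096 replicate 2, AK073210 replicate 1 or AK073210 replicate 2, 2, 8, 6 and 11 of the 30 passed.

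The farthest positive difference belonged to VGD1 (AT2G47040), a pectin methylesterase of pollen needed for pollen tube growth. Its log2 ratios were 3.65 and 4.05 on the AK073210 arrays, against -0.48 and -0.10 on the AK069096 arrays, a difference of 4.14 ± 0.48 (adjusted p = 0.0107), or 17.7-fold between the ratios if they are log10. VGDH1 (AT2G47030), its close homologue next to it on the chromosome, had 2.41 and 3.07 in AK073210, against 0.31 and 0.30 in AK069096 (2.43 ± 0.33, adjusted p = 0.0142). For both genes the AK073210 arrays stood well clear of the AK069096 arrays, which lay close to 0. Probe sequences were not used here, so whether the probes of these homologues share transcripts was not tested. The list of mature pollen and tapetum markers has 45 genes, of which 5 have a probe. VGD1 and VGDH1 passed and the other 3 did not. AMS, a regulator of tapetum development, had 1.12 and 1.44 in AK073210, against -0.35 and -0.67 in AK069096, a difference of 1.78 that missed the threshold (adjusted p = 0.206; 0.167 without AK073112). The differences of AT59, a pollen pectate lyase gene, and of AGL104, a MADS-box gene of pollen, were 0.44 and 0.18, also short of it, and that of AGL104 was -0.01 after quantile normalization. The median difference of the 5 was 1.78 (0 over all probes). The lists of floral organ and seed markers have 0 genes with a named probe, so the share of flowers in either sample could not be set beside these values, and its part in them was not tested. The mesophyll marker RCA, the activase of Rubisco, had -0.24 and 0.10 in AK073210, against -0.01 and 0.15 in AK069096, and the 2 root markers with a probe, EXPA7 and EXPA18, differed by 0.01 and -0.19, none past the threshold and both of the other sign after scale normalization (-0.18 and 0.13). Ratios to Col-0 cannot show whether a marker is present in both samples.

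Defence and hormone genes followed. THI2.1 (AT1G72260), an antimicrobial thionin gene induced by jasmonate, had 2.63 and 2.53 in AK073210, against -0.75 and -0.85 in AK069096, and the smallest adjusted p of the 30 genes (3.38 ± 0.26, adjusted p = 0.00571). BSMT1 (AT3G11480), whose enzyme makes the volatile methyl salicylate, had 2.96 and 0.83 in AK073210, against -0.86 and -2.08 in AK069096 (3.37 ± 0.75, adjusted p = 0.0467). The lines lay on opposite sides of 0 for both genes, but the arrays of each line were far apart for BSMT1 and close for THI2.1. CES (AT1G25330), a basic helix-loop-helix factor of brassinosteroid signalling, had 3.3 and 2.1 in AK073210, against -0.17 and 0.30 in AK069096 (2.63 ± 0.53, adjusted p = 0.0369). GSO1 (AT4G20140), a receptor kinase needed for the embryonic cuticle, had 1.11 and 1.45 in AK073210, against -2.63 and -0.36 in AK069096 (2.78 ± 0.59, adjusted p = 0.0414). The 2 AK069096 arrays disagree widely for GSO1, and its difference lay between 1.64 and 3.91 when 1 array was left out, the lowest without AK069096 replicate 1. In the list of jasmonate and ethylene defence, THI2.1 was the 1 of 4 genes that passed, all of them measured by 1 probe each. JMT, the jasmonate methyltransferase gene, differed by 1.40 (adjusted p = 0.0724; 0.0479 without AK073112) and the thionin gene THI2.2 by 1.02 (0.414; 0.0172), both reaching the threshold without AK073112. The defensin gene PDF1.2 differed by -1.44 (0.443; 0.237).

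The positive side also held genes of walls, sugars and protein turnover. CSLA01 (AT4G16590), of the family that makes mannan backbones, had 2.24 and 2.03 in AK073210, against -0.25 and -0.43 in AK069096 (2.48 ± 0.41, adjusted p = 0.0241). SWEET3 (AT5G53190), of the SWEET family of sugar transporters, had 2.98 and 1.13 in AK073210, against -0.33 and -0.51 in AK069096 (2.47 ± 0.52, adjusted p = 0.0412). The AK073210 arrays differed by more than the distance of the lower one from AK069096, and the SWEET3 difference lay between 1.55, without AK073210 replicate 1, and 3.40, without AK073210 replicate 2. GILT (AT4G12960), a thiol reductase gene, had 2.14 and 2.38 in AK073210, against 0 and 0.36 in AK069096 (2.08 ± 0.26, adjusted p = 0.0117). The GILT means of AK073675 and AK102323 were also 0, and whether such values of 0 are measured ratios is unknown. SBT4.13 (AT5G59120), a subtilisin-like protease gene, had 2.17 and 1.52 in AK073210, against 0.38 and 0.17 in AK069096 (1.57 ± 0.23, adjusted p = 0.0168). For GILT and SBT4.13, as for 4CL8 (AT5G38120), a relative of the 4-coumarate CoA ligases with 1.46 and 1.78 in AK073210, against 0.12 and 0.10 in AK069096 (1.51 ± 0.30, adjusted p = 0.0349), the AK073210 arrays lay far from 0 and the AK069096 arrays near it.

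A further 4 genes had their farther value in AK069096. BZIP61 (AT3G58120), a bZIP transcription factor gene, had -0.39 and -0.52 in AK073210, against -2.39 and -1.96 in AK069096 (1.72 ± 0.38, adjusted p = 0.0442). AGL67 (AT1G77950), a MADS-box gene, was at exactly 0 on both AK073210 arrays, against -1.61 and -1.77 in AK069096 (1.69 ± 0.31, adjusted p = 0.0299). The AGL67 means of AK073675 and AK102323 were also 0. The sources used here do not say whether an exact 0 is a measured ratio. PUB15 (AT5G42340), a U-box ubiquitin ligase gene, had 0.58 and 1.04 in AK073210, against -1.07 and -1.06 in AK069096 (1.87 ± 0.31, adjusted p = 0.0235). TRM25 (AT5G62170), of a family linked to microtubule organisation, had 0.84 and 0.62 in AK073210, against -0.79 and -0.84 in AK069096 (1.54 ± 0.33, adjusted p = 0.0413). In all 4 genes the positive difference came with AK069096 ratios below 0.

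**Figure D2:**
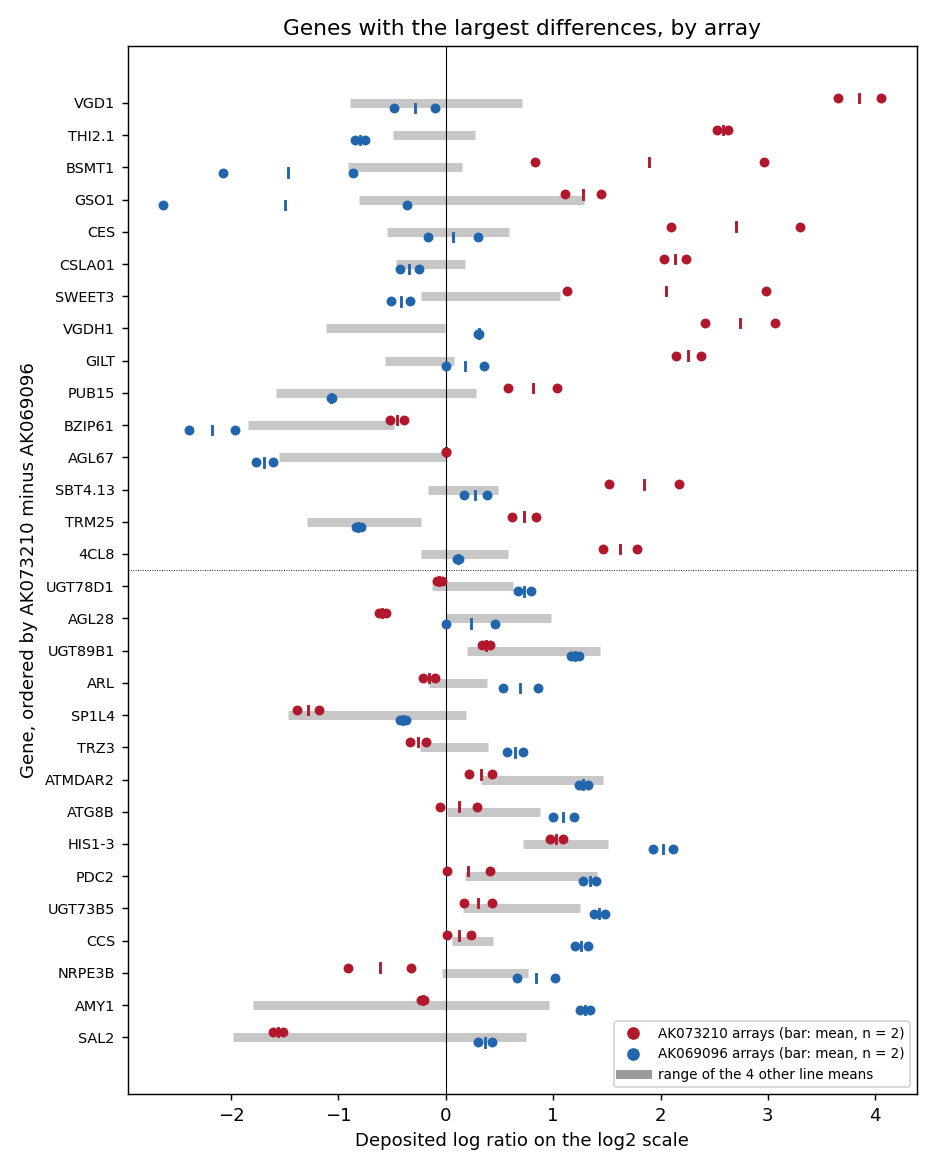
Deposited log ratio (log2 scale, x axis) on each array for the 15 genes with the largest positive differences (above the dotted line) and the 15 with the most negative ones; points are arrays, short bars line means (n = 2), grey bars the range of the 4 other line means. AK073210 lies to the right of AK069096 by 1.51 to 4.14 in the upper genes and to the left by 0.78 to 1.93 in the lower ones.

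The negative side was led by SAL2 (AT5G64000), of a family of nucleotide and inositol phosphatases, with -1.52 and -1.61 in AK073210, against 0.43 and 0.30 in AK069096 (-1.93 ± 0.29, adjusted p = 0.0192). AMY1 (AT4G25000), an alpha-amylase that breaks down starch, had -0.23 and -0.20 in AK073210, against 1.34 and 1.25 in AK069096 (-1.50 ± 0.24, adjusted p = 0.0225). NRPE3B (AT2G15400), a subunit gene of the RNA polymerases of RNA-directed DNA methylation, had -0.91 and -0.32 in AK073210, against 1.02 and 0.66 in AK069096 (-1.46 ± 0.31, adjusted p = 0.0420). In these 3 genes the lines lay on opposite sides of 0, SAL2 with the farther value in AK073210 and AMY1 with the farther value in AK069096.

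In each of the next 6 genes the AK069096 arrays were all positive and the AK073210 arrays nearer 0. CCS (AT1G12520), the copper chaperone of superoxide dismutase, had 0.01 and 0.23 in AK073210, against 1.32 and 1.2 in AK069096 (-1.14 ± 0.24, adjusted p = 0.0416). UGT73B5 (AT2G15480), a glucosyltransferase gene of stress responses, had 0.43 and 0.17 in AK073210, against 1.48 and 1.38 in AK069096 (-1.13 ± 0.14, adjusted p = 0.0116). PDC2 (AT5G54960), a pyruvate decarboxylase of ethanol fermentation, had 0.41 and 0.01 in AK073210, against 1.40 and 1.28 in AK069096 (-1.13 ± 0.20, adjusted p = 0.0290). The arrays of the 2 lines do not overlap in any of these, as the rule for naming genes required. HIS1-3 (AT2G18050), a linker histone induced by drought, had 1.09 and 0.97 in AK073210, against 2.12 and 1.93 in AK069096 (-1.0 ± 0.14, adjusted p = 0.0150). ATG8B (AT4G04620), of the ubiquitin-like proteins that build autophagosomes, had 0.29 and -0.05 in AK073210, against 1.19 and 1.0 in AK069096 (-0.98 ± 0.18, adjusted p = 0.0292). ATMDAR2 (AT5G03630), a reductase that regenerates ascorbate, had 0.43 and 0.22 in AK073210, against 1.24 and 1.32 in AK069096 (-0.95 ± 0.14, adjusted p = 0.0183). HIS1-3 is the member of these 6 whose AK073210 arrays also stood near 1. Its difference was -0.36 after scale normalization (limma, adjusted p = 0.376).

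The other 6 negative differences were under 1 in size. TRZ3 (AT1G52160), which trims the 3′ end of tRNAs, averaged -0.25 in AK073210 and 0.65 in AK069096 (-0.90 ± 0.12, adjusted p = 0.0137). ARL (AT2G44080), a promoter of organ growth through cell expansion, averaged -0.16 in AK073210 and 0.70 in AK069096 (-0.86 ± 0.15, adjusted p = 0.0274). SP1L4 (AT5G15600), of the SPIRAL1 family of microtubule proteins, averaged -1.28 in AK073210 and -0.40 in AK069096 (-0.89 ± 0.19, adjusted p = 0.0431). AGL28 (AT1G01530), a MADS-box gene, averaged -0.59 in AK073210 and 0.23 in AK069096 (-0.82 ± 0.17, adjusted p = 0.0410). SP1L4 and AGL28 are the genes of this group with the farther value in AK073210. UGT89B1 (AT1G73880), a flavonol glucosyltransferase gene, averaged 0.38 in AK073210 and 1.2 in AK069096 (-0.83 ± 0.12, adjusted p = 0.0147), and UGT78D1 (AT1G30530), a flavonol rhamnosyltransferase gene, averaged -0.06 in AK073210 and 0.73 in AK069096 (-0.78 ± 0.16, adjusted p = 0.0412).

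Both lines were then set against the average of the 4 other lines, to ask which line of the pair stood apart. For most called differences neither line was called apart, and the outcome depended on the AK073112 arrays. These comparisons share the arrays of the pair, so they describe it and are no separate evidence. AK073210 differed from the 4 other lines in 219 probes (1.02%), 169 positive (0.786%) and 50 negative (0.233%), and AK069096 in 55 probes (0.256%), 33 positive (0.154%) and 22 negative (0.102%). Of the 529 positive differences of the pair, AK073210 was called apart in 149, AK069096 in 21 and neither in 359. Of the 500 negative ones, AK073210 was called apart in 40, AK069096 in 31 and neither in 429. By distance alone, AK073210 lay farther from the 4 other lines than AK069096 in 309 of the positive differences, in 92 of the 117 of at least 2, and in 146 of the negative ones. Among the 15 named positive genes AK073210 was called apart in 9 and AK069096 in 0. Without the AK073112 arrays AK073210 was called apart from the 3 lines left in 7 of them (not in CES, PUB15 and 4CL8, but in TRM25) and AK069096 in 5 (THI2.1, GSO1, VGDH1, BZIP61 and AGL67). For VGDH1 AK069096 departed to the same side as AK073210 (0.89 and 3.33 from the 4 other lines), which narrows the difference of the pair. VGDH1 stood at 2.74 in AK073210 and the other 4 lines between -1.12 and -0.01 (difference 3.33, adjusted p = 0.0036), THI2.1 at 2.58 and between -0.49 and 0.27 (2.64, adjusted p = 0.00357). BZIP61 was a contrary case, since its AK073210 mean of -0.46 lay close to the nearest of the other lines, at -0.48, and its AK069096 mean of -2.18 was the farthest of the 6. Among the 15 named negative genes SP1L4 and AGL28 were called apart in AK073210, and AMY1 (difference 1.79, adjusted p = 0.0205) and HIS1-3 (0.86, adjusted p = 0.0322) in AK069096. For SP1L4 this holds against the average only, since the AK102323 mean of -1.47 lay beyond the AK073210 mean of -1.28. Without the AK073112 arrays AK073210 was called apart in 1 of these 15, AGL28, and AK069096 in 12. That fit also drops AK073112 from the lines compared. The AK073112 mean lay farther out than that of AK069096 in PDC2 (1.41 against 1.34), ATMDAR2 (1.46 against 1.28), UGT89B1 (1.44 against 1.2) and SAL2 (0.75 against 0.36). In the rest of the 12 AK069096 was the farther line. SAL2 was called apart in neither line with all arrays, and in AK069096 without AK073112 (adjusted p = 0.097 and 0.00403). Without both AK073112 arrays AK073210 differed from the 3 lines left in 195 probes (0.907%) and AK069096 in 4964 (23.1%), so the small count of AK069096 holds only with those arrays in the fit. With 1 array left out, the AK073210 count ran from 86 without AK073210 replicate 1 to 441 without AK073112 replicate 2, and that of AK069096 from 0 without either AK102323 array (3538 and 3570 probes at an unadjusted p under 0.05) to 5415 without AK073112 replicate 2.

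The largest differences of all belonged to probes known only by a locus code. AT3G28780 had 4.95 and 4.72 in AK073210, against -1.15 and -1.55 in AK069096 (6.18 ± 0.61, adjusted p = 0.00766). AT4G36850 had 2.25 and 1.46 in AK073210, against -3.72 and -4.25 in AK069096 (5.84 ± 1.23, adjusted p = 0.0412). AT3G07850 had 6.31 and 6.15 in AK073210, against 0.71 and 0.18 in AK069096 (5.78 ± 0.39, adjusted p = 0.00544). AK073210 was called apart from the 4 other lines for AT3G28780 and AT3G07850, but not for AT4G36850, where AK069096 was the farther line. AT3G01240 had 4.32 and 3.75 in AK073210, against -3.59 and 0.47 in AK069096 (5.59 ± 1.14, adjusted p = 0.038), a size that ran from 3.56 without AK069096 replicate 1 to 7.62 without AK069096 replicate 2. On the negative side AT2G38240 had -3.99 and -4.38 in AK073210, against 0.31 and 0.24 in AK069096 (-4.46 ± 0.87, adjusted p = 0.0342). AT4G36430 followed with -2.87, AT2G42460 with -2.46 and AT5G15500 with -2.29. For AT5G15500 both lines were positive, with means of 0.78 in AK073210 and 3.06 in AK069096.

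Genes with a called difference were also looked up in chromosome order, among 9225 genes with a probe, of which 435 were called. Neighbours on the array, with any genes without a probe between them passed over, formed 18 runs of at least 2 called genes on the same side, 8 positive and 10 negative, holding 40 genes. The 3 runs of 3 or more were all positive. The longest holds AT3G28780, AT3G28790 (4.82 and 2.97 in AK073210, against -0.58 and 0 in AK069096), AT3G28830 (4.55 and 3.49, against 0 and 0) and AT3G28840 (2.22 and 2.47, against -0.50 and -0.14). Nearby AT3G28750 was also called, with 4.15 and 3.82 in AK073210, against 0 and 0 in AK069096, while AT3G28760 between them differed by 0.38 (adjusted p = 0.182) and ended the run. The next is VGDH1, VGD1 and the adjoining AT2G47050, which had 2.94 and 4.32 in AK073210, against -0.53 and 0 in AK069096 (3.89 ± 0.61, adjusted p = 0.0215). The third holds AT3G21920, AT3G21970 and AT3G21990, with differences of 1.31, 2.77 and 1.67. In these 10 genes every AK073210 array was positive, and the AK069096 arrays lay between -1.55 and 0.38. THI2.1 also had a called neighbour, AT1G72290, with 4.65 and 2.97 in AK073210, against -1.25 and -1.33 in AK069096 (5.10 ± 0.86, adjusted p = 0.0247). Whether neighbouring genes of like sequence share transcripts on these probes was not tested. It is also unknown whether the AK069096 values of 0 in AT3G28830 and AT3G28750 are measured ratios.

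**Figure D3:**
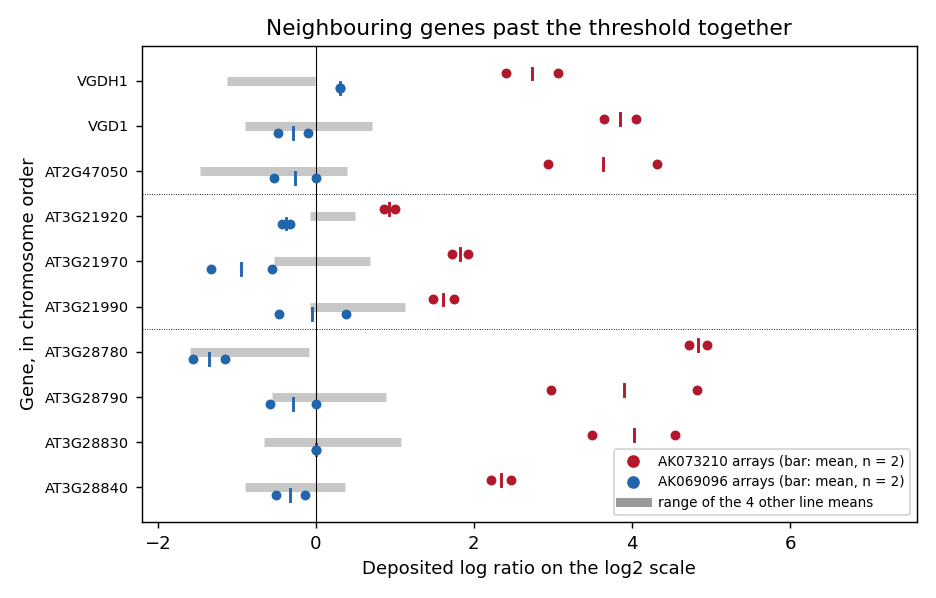
Deposited log ratio (log2 scale, x axis) on each array for the genes of the 3 runs of at least 3 called neighbours, in chromosome order, with dotted lines between runs; points are arrays, short bars line means (n = 2), grey bars the range of the 4 other line means. All AK073210 points lie right of 0, and the AK069096 points lie between -1.55 and 0.38.

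Gene lists gave a view of pathways, though few of their members have a named probe. List counts are to be read beside the share of all probes called. That share was 4.79% with all arrays and 21.6% without AK073112 (10.5% positive and 11.1% negative), so counts without AK073112 rose across the array. The 7 called list members outside the 30 genes above (HEMA2, SWEET16, UGT76D1, CYP71B29, bZIP52, COR27 and CHL) kept their side but missed limma's threshold after quantile (adjusted p from 0.0595 to 0.161) and after scale normalization (0.0679 to 0.22). Chlorophyll and tetrapyrrole synthesis showed the most even pattern. All 8 of its 29 genes with a probe had a positive difference, with both AK073210 arrays beyond both AK069096 arrays, which was so on the positive side for 30.1% of all probes, on the negative side for 31.6%, and on either for 61.7%. HEMA2, a glutamyl-tRNA reductase that opens the pathway, passed, with -0.13 and 0.12 in AK073210, against -0.59 and -0.71 in AK069096 (0.64 ± 0.14, adjusted p = 0.0467). The others missed the threshold with all 12 arrays. They are GSA1 and HEMB1 of the early steps (0.47 and 0.84), HEME1 and HEME2, both uroporphyrinogen decarboxylases (1.0 and 1.05), CHLI2, a subunit of magnesium chelatase (0.84), CHLM, a methyltransferase (0.71), and PORB, a protochlorophyllide reductase (0.60). Without AK073112 7 of the 8 passed, all but CHLM (adjusted p = 0.064), where 10.5% of all probes passed on the positive side. The median line ratio was -0.45 in AK073210 and -1.25 in AK069096, so both lines were negative and AK073210 nearer 0, as it was in most probes of all kinds. The median difference was 0.77 (0 over all probes), 0.50 after quantile and 0.42 after scale normalization.

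Photosystem, antenna and thylakoid genes differed less. By limma 0 of 11 genes with a probe passed (1 at an unadjusted p under 0.05), and 3 positive and 1 negative did without AK073112. PSB27, an assembly factor of photosystem II, had -0.81 and -0.21 in AK073210, against -1.82 and -1.87 in AK069096, a difference of 1.34 (adjusted p = 0.153; 0.00665 without AK073112). The antenna genes LHCB4.1, LHCB4.2 and LHCB4.3 differed by -0.03, 0.30 and 0.24, that of LHCB4.2 becoming -0.02 after scale normalization. The median difference of the list, 0.28, was -0.02 after scale normalization. In the Calvin cycle PRK, the phosphoribulokinase gene, differed by 0.43 (adjusted p = 0.108; 0.00913 without AK073112), and by limma 0 of 4 genes passed (1 at an unadjusted p under 0.05).

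Starch and sugar genes went both ways. Of 21 genes with a probe, SWEET3 and SWEET16 passed with a positive difference and AMY1 with a negative one (2 and 1). Without AK073112 the counts were 3 and 7, beside 10.5% and 11.1% of all probes. SWEET16, a sugar carrier of the vacuole membrane, had -0.11 and -0.03 in AK073210, against -1.3 and -1.23 in AK069096 (1.19 ± 0.21, adjusted p = 0.0276). AKINBETA1, a subunit of the energy-sensing SnRK1 kinase, differed by 1.54 (adjusted p = 0.0981; 0.00589 without AK073112). The genes that joined on the negative side without AK073112 include the sucrose exporters SWEET13, with 1.32 and 1.3 in AK073210, against 4.02 and 3.65 in AK069096 (-2.53, adjusted p = 0.0817; 0.000808), and SWEET11 (-0.44). They also include APL3 and APL4, regulatory subunits of the enzyme that makes ADP-glucose for starch (-1.66 and -1.09). NRT2.5, a nitrate transporter gene outside this list, differed by -2.55 (adjusted p = 0.0961; 0.0128 without AK073112). In SWEET13, APL3 and NRT2.5 both lines were positive, with AK069096 farther out.

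Among flavonoid and anthocyanin genes UGT78D1 passed, 1 of 9 genes measured by 10 probes, on the negative side. Leaving out AK073112, 1 probe passed with a positive and 3 with a negative difference. DFR, the dihydroflavonol reductase, had 3.55 and 2.66 in AK073210, against 6.44 and 6.25 in AK069096, a difference of -3.24 that missed the threshold with all 12 arrays (adjusted p = 0.0774) and passed without AK073112 (0.00271). UF3GT, which adds xylose to anthocyanins, had 3.75 and 3.69 in AK073210, against 5.71 and 5.08 in AK069096 (-1.68, adjusted p = 0.202; 0.0109 without AK073112). Both genes were far on the positive side in each line, and their AK073210 and AK069096 arrays do not overlap. AT5MAT, an anthocyanin malonyltransferase, had 3.39 and 3.39 in AK073210, against 3.99 and 3.42 in AK069096 (-0.32, adjusted p = 0.856), and UGT78D2, a flavonoid glucosyltransferase, differed by -0.52 (adjusted p = 0.556). After scale normalization UF3GT differed by 0.09 (adjusted p = 0.962), AT5MAT by 0.96 and UGT78D2 by 0.36, all on the other side, and DFR by -1.24 (adjusted p = 0.386). The list's median of -0.42 became 0.22.

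**Figure D4:**
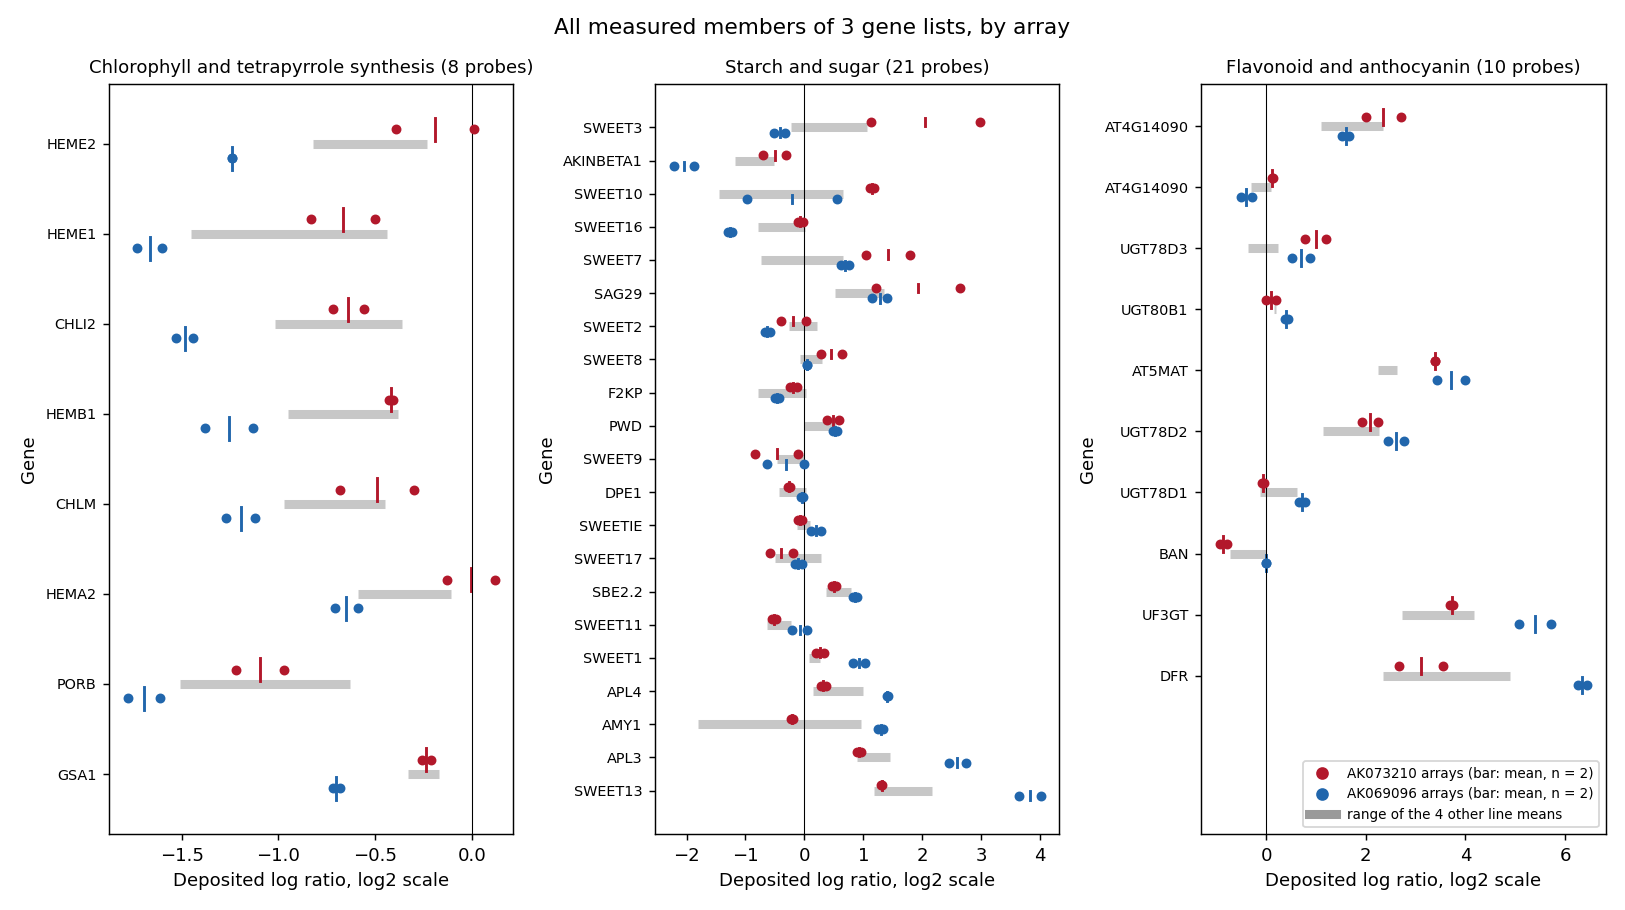
Deposited log ratio (log2 scale, x axes) on each array for all measured members of 3 gene lists; points are arrays, short bars line means (n = 2), grey bars the range of the 4 other line means. In the left panel all 8 chlorophyll genes have AK073210 to the right of AK069096; starch and sugar genes differ in both directions; DFR and UF3GT have AK069096 farther right as deposited, UF3GT no longer after scale normalization (0.09).

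Glycosyltransferases and cytochromes P450, which modify small molecules, had more negative than positive differences, where all probes had 10742 negative and 10488 positive ones. Of 47 UDP-glycosyltransferase genes, UGT73B5, UGT89B1 and UGT78D1 passed with a negative difference (3 genes). With a positive one 1 gene passed, UGT76D1, with 0.53 and 0.33 in AK073210, against -0.96 and -0.90 in AK069096 (1.37 ± 0.27, adjusted p = 0.0349). Without AK073112 8 negative and 5 positive passed, beside 11.1% and 10.5% of all probes. Their median difference was -0.16, with 31 negative and 15 positive. It was -0.12 with 16 positive after quantile normalization, and -0.06 with 20 positive after scale normalization. The AK073210 mean lay nearer 0 in 36 of the 47, beside 63.0% of all probes. Of 17 cytochrome P450 genes with a symbol 1 passed, CYP71B29 (-0.62 ± 0.11, adjusted p = 0.0271). In the fit without AK073112 6 passed, all negative, a side on which 11.1% of all probes passed. CYP78A9, of a family that promotes organ growth, had 0.25 and 0.03 in AK073210, against 1.31 and 1.58 in AK069096 (-1.3, adjusted p = 0.113; 0.00283 without AK073112). The P450 median was -0.35, with 14 negative and 3 positive. After quantile and after scale normalization it was -0.49, with 5 positive. Most of the 17 belong to the CYP71B subfamily, so they do not stand for all cytochromes P450. In detoxification UGT73B5 was the 1 of 18 genes that passed, and without AK073112 4 negative and 1 positive did, among them the glutathione transferase genes GSTU16 (-0.72) and GSTU18 (0.48). Among 15 genes of redox and methionine sulfoxide reduction 0 passed by limma (2 at an unadjusted p under 0.05), and 2 did without AK073112, both negative. MSRB6, a methionine sulfoxide reductase gene, was far on the negative side in both lines, with -3.12 and -3.45 in AK073210, against -4.02 and -4.05 in AK069096 (0.75, adjusted p = 0.606). This difference became -0.22 after quantile and -0.61 after scale normalization.

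Transcription factor families had 65 probes for 63 genes, of which 3 had a called positive difference (BZIP61, AGL67 and bZIP52, the last with 0.74 ± 0.16, adjusted p = 0.0429) and 1 a negative one (AGL28). Without AK073112 the counts were 8 and 3. WRKY42 differed by 1.70 (adjusted p = 0.0767; 0.0392 without AK073112). In expansins and wall remodelling CSLA01 was the 1 of 50 genes that passed, with 3 on each side without AK073112. They include the expansin genes EXPB3 (-1.52, adjusted p = 0.0617; 0.0203) and EXPA8 (1.15, 0.444; 0.0307). Among cold, drought and abscisic acid genes COR27, which links cold and the clock, was the 1 of 6 that passed, with -0.40 and -0.13 in AK073210, against -1.50 and -1.71 in AK069096 (1.34 ± 0.26, adjusted p = 0.0343). The cold genes COR15A, COR15B and KIN2 lay on the other side, with -0.89, -0.74 and -0.89, and passed only without AK073112. KIN1 lay on the side of COR27 (0.45, adjusted p = 0.0568; 0.0157 without AK073112). In the lipid and cuticle list CHL, a lipocalin of the chloroplast, passed, with -0.77 and -0.54 in AK073210, against -1.62 and -1.56 in AK069096 (0.94 ± 0.11, adjusted p = 0.0107). Its difference was 0.60 after quantile and 0.44 after scale normalization (adjusted p = 0.0702 and 0.128). SHN3, a regulator of cuticle formation, had 0.40 and 0.43 in AK073210, against 3.26 and 3.16 in AK069096, a difference of -2.80 that missed the threshold with all arrays (adjusted p = 0.063) and passed without AK073112 (8.32e-05). Its 4 arrays were tight within each line and far apart between the lines.

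The remaining lists held few or no calls. With 4.79% of all probes called, lists this short would hold few or none, so their counts do not show an absence of difference. HIS1-3 was the 1 of 10 probes called for histones, replication and the cell cycle, where 8 differences were positive, and PUB15 the 1 of 15 ubiquitin ligase genes. 4CL8 was the 1 of 5 phenylpropanoid genes, CCS the 1 copper gene with a probe and SAL2 the 1 phosphatase gene. With all arrays limma called 0 of 13 tubulin and cytoskeleton genes (6 at an unadjusted p under 0.05, 3 called without AK073112, all positive) and 0 of 19 genes of ER bodies and beta-glucosidases (5 at an unadjusted p under 0.05, and 3 positive and 2 negative called without AK073112). It called 0 of 12 auxin genes (2 at an unadjusted p under 0.05, 1 called without AK073112) and 0 of 7 senescence genes (3 at an unadjusted p under 0.05, and 1 positive and 2 negative called without AK073112). The 2 negative ones are the vacuolar processing protease genes GAMMA-VPE and BETA-VPE, which differed by -2.58 and -1.94 (adjusted p = 0.135 and 0.147; 0.00209 and 0.00112 without AK073112), both positive in each line with AK069096 farther out. Limma also called 0 of 5 glucosinolate, 0 of 4 iron, 0 of 2 heat shock, 0 of 2 salicylic acid and 0 of 2 clock and light genes, with 2, 1, 1, 0 and 0 of them at an unadjusted p under 0.05 and 1, 1, 0, 0 and 0 called without AK073112.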

How the data were processed

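The deposited table holds the authors' log ratios, 1 value per probe and array for 12 two-colour Agilent arrays, and was taken as log10 because its values have the form of that scanner program's log ratio: of both signs, centred on 0, with 2.92% to 9.43% of an array's probes at exactly 0. The sources used here state neither the log base nor the ratio's direction, background correction or dye correction. Agilent Feature Extraction 7.1.1 is named per the submitters' processing notes. Values were multiplied to the log2 scale. p-values do not depend on the base, sizes do.

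Using limma 3.58.1 in R 4.3.3, a mean was fitted per line over all 12 arrays (6 residual and 1.88 prior degrees of freedom), and AK073210 minus AK069096 and each of these lines minus the mean of the 4 other lines were tested two-sided, with Benjamini-Hochberg adjustment over 21494 probes. On simulated arrays for AK073210 minus AK069096 over 21494 probes, 44 of 100 changes of log2 1 and 70 of 100 of log2 2 were recovered, with 9 false calls. The simulation used normal noise, the same spread of a probe in all lines, and no differences among the other lines. Its figures need not hold for the real arrays, whose lines differ in spread. The alternatives were quantile and scale normalization, exact zeros as missing, probes averaged per locus, a replicate block, array weights, a robust spread, other sets of arrays and each array left out.

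Of 21500 probes, 9375 have a listed gene (9335 have 1, 40 have several), and 12125 have none. The gene IDs of 9317 probes matched the TAIR10.1 annotation, used for symbols and gene order only, and 1316 carry a symbol. Genes named are the 15 largest positive and 15 most negative called differences with a symbol and arrays that do not overlap, called list members, members of the lists discussed, and 4 locus codes a side. The lines compared, the 34 lists and this rule were chosen with earlier results of these data known. List names that turned out to mean other genes (CHI, FRO1 and a ribosomal list) were taken out after their values had been seen.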

Additional observations from a re-analysis of the deposited data

Results flagged for a closer look

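The named genes below had both arrays of one line above 0 and both arrays of the other below 0. As no array swaps the dyes, the side of 0 can include a dye effect, which cancels only in the difference. The signs alone therefore do not place the lines on opposite sides of Col-0. The size given is the difference AK073210 minus AK069096 on the log2 scale, which passed the threshold of the fit in each. With both AK073210 arrays positive these were VGD1 (4.14), THI2.1 (3.38), BSMT1 (3.37), GSO1 (2.78), CSLA01 (2.48), SWEET3 (2.47), PUB15 (1.87), TRM25 (1.54), IQD19 (1.45), SCPL43 (1.42), UGT76D1 (1.37), ULT1 (1.23), SPL (1.17), NET2C (1.16), ZCF125 (1.03), EXO (0.98), IQD18 (0.93) and TBL39 (0.92), and the locus codes AT3G28780 (6.18) and AT4G36850 (5.84). With both AK073210 arrays negative they were SAL2 (-1.93), AMY1 (-1.50), NRPE3B (-1.46), TRZ3 (-0.90), ARL (-0.86), UGT78D1 (-0.78), LUL1 (-0.76), UBC29 (-0.71), DJ1F (-0.67), CYP71B29 (-0.62), LSM1A (-0.54) and VPS24.1 (-0.47), and the locus codes AT2G38240 (-4.46) and AT2G42460 (-2.46). Of all probes, 14.4% had the lines on opposite sides in this way, and outliers within a line could not be tested with 2 arrays.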

How the results depend on the processing

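For AK073210 minus AK069096, 1029 probes passed as deposited, 338 after quantile and 248 after scale normalization, 3698 with array weights, 4645 without both AK073112 arrays, and 0 by limma with the 4 arrays alone (6566 at an unadjusted p under 0.05), where 2 residual degrees of freedom are left. With 1 array left out it ran from 109 to 4645. For AK073210 against the 4 other lines, 219 became 77 with array weights and 86 to 441 with 1 array left out. For AK069096 against them, 55 became 6 after quantile and 2 after scale normalization, 22 with the replicate block, 2386 with array weights, 4964 without both AK073112 arrays, and 0 to 5415 with 1 array left out. The cause was not tested, except that array weights gave the AK073112 arrays the lowest weight, 0.201. Exact zeros as missing, probes per locus and a robust spread moved none of the 3 counts by over 1.5 times. The replicate number paired no samples (r = 0.03 between the replicate differences of AK073210 and AK069096, and -0.068 to 0.175 over all pairs of lines), and the replicate block gave 758 and 189 probes for the comparisons of AK073210 and left 22 of the 30 named genes past the threshold. None of the 30 changed side under any alternative that gave a value, and with exact zeros as missing 26 had one. For arrays left out this was fixed in advance, since the rule took genes whose arrays do not overlap. The replicate block, array weights and robust spread leave the difference of line means as it is. If the values were log2, every size would be smaller by a factor of 3.32. Of the 24 lists with at least 3 probes, the median of 7 changed side under 1 alternative each, and that of the 2 clock and light probes, -0.20, was 0.04 after scale normalization. Of the 24 other called genes with a symbol, 8 passed after quantile and 7 after scale normalization. The comparisons with the other lines could not be made from 4 arrays. Channel intensities were not used here, so signal over background is unknown.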

Other observations

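A further group of called genes with a symbol fell outside the rule for named genes and was chosen after its values were seen. SPL, also called NOZZLE, is needed to form the sporogenous cells of anthers and ovules, and had 0.75 and 0.94 in AK073210, against -0.27 and -0.39 in AK069096 (1.17 ± 0.17, adjusted p = 0.0180). NET2C, an actin-binding protein of pollen, had 0.69 and 0.81 in AK073210, against -0.35 and -0.47 in AK069096 (1.16 ± 0.18, adjusted p = 0.0225). ULT1, a regulator of floral meristem size, had 0.44 and 0.69 in AK073210, against -0.58 and -0.75 in AK069096 (1.23 ± 0.23, adjusted p = 0.0318), and HLL, needed for ovule development, differed by 0.87 ± 0.18 (adjusted p = 0.0408). For SPL, NET2C and ULT1 the arrays of both lines were tight and on opposite sides of 0. As the genes were picked for how they moved, they add no count to the pollen markers.

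IQD19, of the calmodulin-binding IQD family, had 0.48 and 0.59 in AK073210, against -1.16 and -0.67 in AK069096 (1.45 ± 0.24, adjusted p = 0.0246). IQD18, of the same family, had 0.46 and 0.50 in AK073210, against -0.53 and -0.38 in AK069096 (0.93 ± 0.14, adjusted p = 0.0195). Members of the family that were not called were not counted, so these genes do not describe the family. EXO, a brassinosteroid-responsive gene of leaf growth, had 0.13 and 0.16 in AK073210, against -0.79 and -0.87 in AK069096 (0.98 ± 0.22, adjusted p = 0.0481). IRX15-L, which acts in xylan synthesis, differed by 0.78 ± 0.15 (adjusted p = 0.0349), and TBL39, of a family of wall polysaccharide acetyltransferases, by 0.92 ± 0.17 (adjusted p = 0.0316). On the negative side DREB2C, a transcription factor of heat and drought responses, had -0.61 and -0.79 in AK073210, against 0.19 and -0.11 in AK069096 (-0.74 ± 0.15, adjusted p = 0.0360), and its neighbour AT2G40350 differed by -1.2 ± 0.23 (adjusted p = 0.0330). LSM1A, of the complex that leads mRNA into decay, differed by -0.54 ± 0.10 (adjusted p = 0.0288), and VPS24.1, a subunit of the ESCRT-III complex of membrane sorting, by -0.47 ± 0.10 (adjusted p = 0.0463).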
